A study of Homo sapiens with 6 samples.

Results

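The genes described here are the clustered histone genes of MRC5 cells (a human lung fibroblast line), chosen by name: every gene of the deposited count table whose GENCODE symbol starts with H1-, H2AC, H2BC, H3C or H4C and which had at least 10 counts summed over 6 RNA-Seq libraries. This rule found 35 genes among the 19072 that passed the same count filter, and 90 genes of the table carry such a symbol whatever their count. For 24 h the fibroblasts were exposed to conditioned media (CM) of ATIIER:KRASV12 cells, which were either untreated controls (3 libraries, control ATII CM) or given 4-OHT (3 libraries, 4-OHT ATII CM). ATIIER:KRASV12 cells are an alveolar epithelial type II line in which 4-OHT (4-hydroxytamoxifen) switches a RAS oncoprotein on. All 6 libraries come from the same fibroblast line, grown in DMEM with serum. The design asks how the fibroblast transcriptome differs between the 2 media. The labels do not say that the libraries came from separate cultures, so the p values measure the spread between libraries, which may be technical.

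Histones package DNA. Pairs of H2A, H2B, H3 and H4 form the nucleosome core, and H1 is the linker histone that binds DNA between nucleosomes. Most histone genes lie in clusters without introns, are transcribed mainly during DNA replication, and give mRNAs that end in a conserved 3′ stem-loop bound by SLBP in place of a poly(A) tail. The libraries were made from polyA RNA, in which such mRNAs are poorly represented. Counts of these genes therefore reflect the part of their mRNA that carries a tail or was carried along, and differences in synthesis, tailing and carry-over cannot be told apart. In bulk samples, fewer cells in S phase and less RNA per cell cannot be told apart either.

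Of the 35 genes, 31 were protein-coding, 3 were pseudogenes (H1-9P, H2BC19P and H2BC20P), and 1 was a long noncoding RNA, H1-10-AS1, which matched only because it is named after its neighbour. H1-10 lies outside the clusters, on chromosome 3, and is known as a linker histone made independently of replication, with an ordinary polyadenylated mRNA. The name of a clustered replication-dependent gene therefore fits 29 of the 35 at most. H4C16 of these lies on chromosome 12, away from the clusters on chromosomes 6 and 1. On GRCh38, 13 of the genes were in a block of chromosome 6 between 26055787 and 26285638, and 9 in a second block there between 27125897 and 27865798. Chromosome 1 held 6 between 149782689 and 149887364, and a further 2 between 228456979 and 228460470.

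The 3′ stem-loop was searched for in the genome, since it is the feature that sets these mRNAs apart and was not used to choose the genes. The search looked for arms of 6 bases that start with GG and pair perfectly across a loop of 4 bases with at least 3 T, within 200 bases after the stop codon. It was found in 27 of the 31 coding members and in 72 of all 19942 protein-coding genes (0.361%), of which 67 have a histone symbol. H1-10, H2AC11 and H3C6 had none, which says only that no perfect match lay in that window. It began 23 to 57 bases after the stop codon, with a median of 36. The sites below are from hg38, 5′ to 3′ on the strand of the gene, with the paired arms in capitals. They show the forms found in the most abundant members with a stem-loop of each class. For H3 only H3C10 and H3C8 had a stem-loop, and these had 71 and 19 counts over the 6 libraries.
H1-2, chr6:26055739-26055764, minus strand: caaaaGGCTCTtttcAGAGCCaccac
H2AC6, chr6:26124664-26124689, plus strand: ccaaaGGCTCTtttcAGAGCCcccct
H2BC12, chr6:27146361-27146386, minus strand: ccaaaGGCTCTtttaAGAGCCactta
H2BC5, chr6:26158582-26158607, plus strand: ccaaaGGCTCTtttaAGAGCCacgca
H3C10, chr6:27810511-27810536, plus strand: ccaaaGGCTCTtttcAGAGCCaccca
H3C8, chr6:26270918-26270943, minus strand: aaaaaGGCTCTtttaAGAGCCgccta
H4C9, chr6:27139649-27139674, plus strand: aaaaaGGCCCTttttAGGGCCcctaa
H4C8, chr6:26285126-26285151, minus strand: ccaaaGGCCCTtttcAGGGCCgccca
All 7 H4 members had arms of the second kind, GGCCCT with AGGGCC. The other 20 members with a stem-loop, from H1, H2A, H2B and H3, had GGCTCT with AGAGCC.

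Library totals lay between 17691849 and 26389449 counts (median 22273931). No pair of replicates was close enough to be 1 library deposited again, since chi-square over degrees of freedom ran from 2.12 to 6.03. Fibroblast markers were all present, with 10 of 10 tested and summed levels of 46670 to 51820 CPM in control ATII CM and 48430 to 50050 CPM in 4-OHT ATII CM. CPM is the count scaled to the TMM-normalized library size. Of 12 epithelial markers, 6 passed the filter, with summed levels of 97.8 to 103.8 CPM in control and 95.7 to 103.2 CPM in 4-OHT ATII CM. SFTPA1 and NKX2-1, which mark alveolar epithelium, had no count in any library, and CDH1, SFTPC, SFTPB and ELF3 had at most 4 in all. Among the fibroblast markers, COL3A1, DCN, LUM and PDGFRA were called higher in 4-OHT ATII CM (log2 fold changes 0.18, 0.33, 0.29 and 0.22). VIM and FN1 were called lower (-0.10 and -0.32), the last 2 lost without control replicate 3 or 4-OHT replicate 2. The number of markers called lower changed in 8 of 16 alternative settings.

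Most of the genes were sparse. Over the 6 libraries together the members had a median of 108 counts, against 1154 for all genes tested, and 16 of the 35 had fewer than 100. H1-10, outside the clusters, had 8511 counts. The 29 coding members taken as replication dependent gave 14557 counts in all, of which H2AC6, a canonical H2A gene, held 5340 and H2BC12, an H2B gene, 2793. By class, H2A genes held 42.3% of the 14557 counts, H2B genes 36.8%, H4 genes 10.4%, clustered H1 genes 8.04% and H3 genes 2.48%. The leading gene of each core class was H2AC6, H2BC12, H3C6 and H4C9, and the leading clustered linker gene was H1-2.

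**Figure D1:**
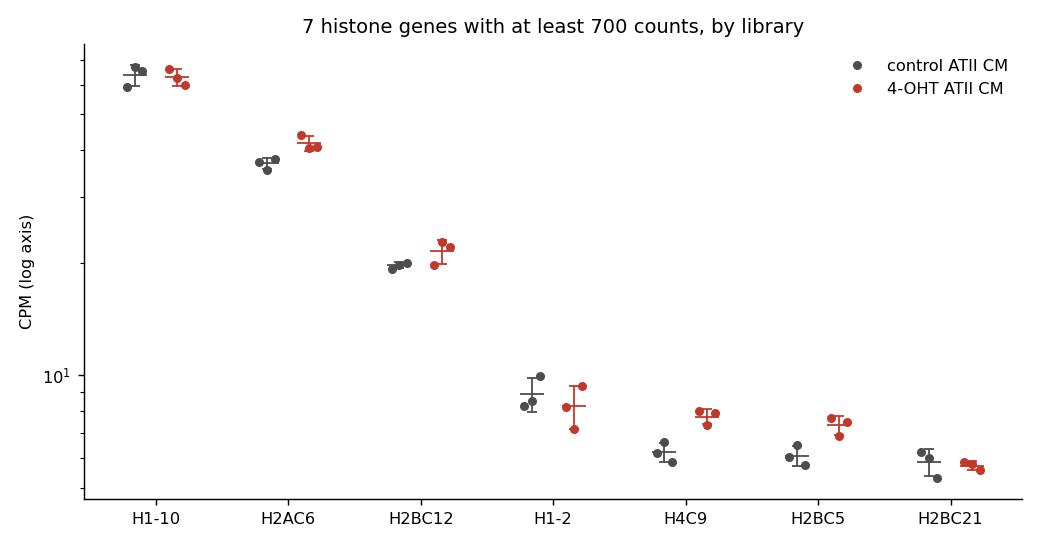
CPM on a log axis of 7 members with at least 700 counts, in each of the 3 control ATII CM libraries (grey) and 3 4-OHT ATII CM libraries (red); bars are the mean and SD of each group. The groups stand apart for H2AC6, H4C9 and H2BC5 and overlap for the other 4 genes.

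Levels of different genes were compared per length, as RPKM, which is CPM divided by the kilobases of merged exons in the deposited table. In control ATII CM the mean RPKM (± SD, n = 3) was 51.7 ± 0.918 for H2BC12, 42.3 ± 2.77 for H1-10, 22.1 ± 0.767 for H2AC6 and 13.9 ± 1.45 for H1-2. The next levels were 6.99 ± 0.438 RPKM for H2BC5 and 4.81 ± 0.286 RPKM for H4C9, and each neighbouring pair among these 6 genes lay apart by more than the SDs. The other 28 members described were at most at 3.58 RPKM, the level of H2AC25. The place of H2BC12 depends on its gene model, which holds 381 bases, exactly the coding sequence, while that of H2AC6 holds 1668 bases.

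The reach of the gene models divided the members. In 19 of the 27 genes with a stem-loop the deposited exons held more than 60 bases past it, with 1128 exon bases there for H2AC6, 414 for H2BC5, 1729 for H2BC21 and 212 for H4C9. With introns included, the gene ended 14432 bases past the stem-loop for H2AC6 and 12747 for H2BC5. In the other 8 genes the model ended before the stem-loop or within 60 bases of it. The 19 genes held 67.6% of the 14557 counts and had a median of 106 counts per gene. The 8 genes held 28.3% and had a median of 36. H2BC12 and H1-2, whose models end 52 and 43 bases before the last base of the stem-loop, gave most of these counts. A short model thus went with few counts in 6 of 8 genes, and 9 of the 19 long models also had fewer than 100 counts. The table gives one count per gene, so whether a read lay in the coding sequence or beyond the stem-loop was not measured.

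**Figure D2:**
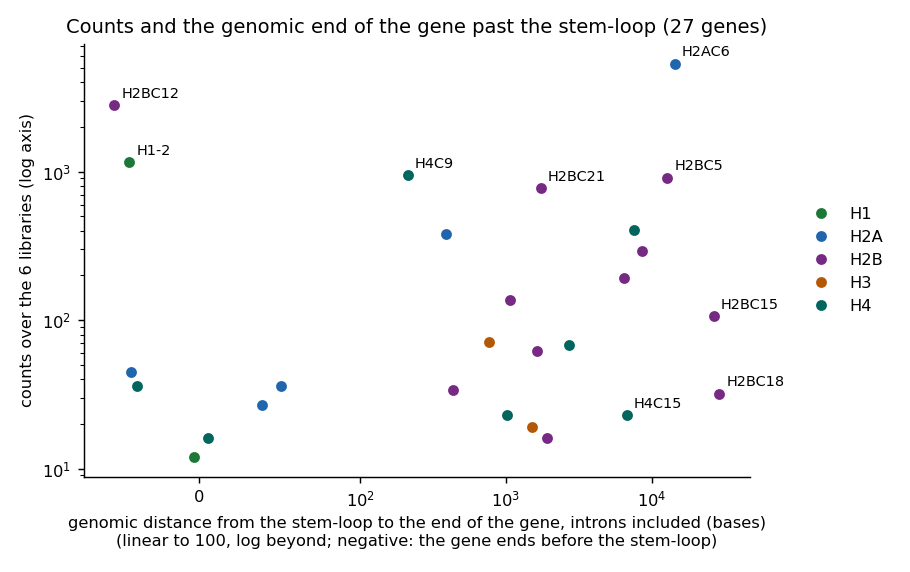
Counts over the 6 libraries (log axis) of the 27 members with a stem-loop against genomic distance in bases, introns included, colored by class. The distance runs from the last base of the stem-loop to the end of the deposited gene. It is negative where the gene ends before that base. H2BC12 and H1-2, which end 52 and 43 bases before that base, had 2793 and 1159 counts. The genes that end over 60 bases past it range from 16 to 5340 counts.

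Sequence shared between copies limits the values of some members. A coding sequence at least 95% identical over at least 90% of its length was found elsewhere for 5 members. H4C11 and H4C12 matched each other at 100%, H4C15 matched H4C14 at 100%, H2BC12 matched H2BC12L at 98.9%, and H2AC13 matched H2AC14 at 98.2%. How reads that fit several places were counted is not given in the sources used here, so counts of these genes are uncertain. H3C14 and H3C15, whose coding sequences are also identical, had 0 counts in all 6 libraries. Exons of 8 members overlapped those of another gene, and the overlap was largest for the pseudogenes H2BC19P and H2BC20P, which share 1989 bases on opposite strands. H2BC6 shares 730 bases, 28.2% of its exon bases, with an unnamed gene on the opposite strand. H1-10 and H1-10-AS1 share 345 bases, 22.9% of the exon bases of H1-10, also on opposite strands.

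The threshold of 10 counts lay within a dense run of sparse genes. Just inside it was H1-4 with 12 counts, with 1, 1 and 1 in the control libraries and 0, 3 and 6 in the 4-OHT libraries. H2BC26 had 1, 1 and 3 against 0, 8 and 3 counts, H4C11 had 3, 1 and 2 against 6, 2 and 2, and H3C8 had 19 in all. Just outside were H2BC7, H4C3 and H2BC13 with 9 counts each, H3C1 and H2AC14 with 7, H3C11 with 6, and H3C13, H2BC12L, H2AC12 and H1-5 with 5. The 55 genes under the threshold gave 114 counts together, and 28 of them gave none. A count of 0 allows up to 3 counts in a library at this depth, for counting error only, so genes at 0 were not detectable rather than absent. This limit does not hold where reads may have been lost to a copy or an overlapping gene, as for H3C14 and H3C15. Nor does it hold for H2AC7, H3C4 and H2AC17. Of their exon bases, 98.0%, 100% and 88.0% lie in the exons of another gene on the same strand. For H2AC15, 100% lie in the exons of H2BC15 on the opposite strand, and the strand setting of the counting is not given.

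Between the media, 1 of the 35 genes passed the test. H2AC6 was higher in 4-OHT ATII CM, at 37.3, 35.5 and 38.0 CPM in control replicates 1 to 3 and at 44.1, 40.7 and 40.8 CPM in 4-OHT replicates 1 to 3. The groups did not overlap, and 4-OHT replicate 1 was the highest library. The means were 36.9 ± 1.28 CPM and 41.8 ± 1.95 CPM (SD, n = 3 each), which is a difference of 0.18 on the log2 scale with a standard error of 0.0497 (adjusted p = 0.0494, edgeR's quasi-likelihood test, Benjamini-Hochberg adjustment over all genes). The call sits at the threshold: it was lost with DESeq2 (adjusted p = 0.104) and limma-voom (adjusted p = 0.0624), and without any 1 of the 6 libraries (adjusted p = 0.0862 to 0.171), while the log2 fold change stayed between 0.14 and 0.20 over all alternatives. Of all 19072 genes tested, 5.72% were called, 2.95% higher and 2.76% lower, so 1 of 35 members called (2.86%) is no more than that background.

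RNAs that normally lack a poly(A) tail were followed as a list of 18, and 1 of them was called higher. RN7SL2, a 7SL RNA of the signal recognition particle, was at 12.2, 16.6 and 11.6 CPM in control and at 57.0, 28.1 and 14.9 CPM in 4-OHT ATII CM. The groups overlapped, and 4-OHT replicate 1, which had the highest level of H2AC6, had the highest of RN7SL2. Its log2 fold change was 1.30 with a standard error of 0.331 (edgeR, adjusted p = 0.0295), lost with DESeq2 (adjusted p = 0.166) and called in 10 of 16 alternatives. Of the list only 4 passed the count filter, and RN7SK, RN7SL1, RMRP and RPPH1 were at 0 counts in all libraries. All 4 had a positive log2 fold change, with a median of 1.19. SCARNA6, SCARNA7 and SNORD3A had only 11, 12 and 20 counts over the 6 libraries and were not called. Summed levels of the 4 were 11.7 to 16.9 CPM in control and 15.1 to 57.7 CPM in 4-OHT ATII CM. Without 4-OHT replicate 1, the log2 fold change of RN7SL2 was 0.69 (edgeR, adjusted p = 0.0813) and that of H2AC6 was 0.14 (adjusted p = 0.171). The part of such RNA in the histone counts was not tested.

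H2BC4, an H2B gene, starts 219 bases from H2AC6 on the other strand. It was at 2.58, 2.24 and 2.21 CPM in control and 2.33, 1.604 and 2.17 CPM in 4-OHT ATII CM, with overlapping groups. Its log2 fold change was -0.21 (95% interval -0.61 to 0.20, edgeR, adjusted p = 0.653), and the difference between the 2 genes was not tested. Among the members there were 5 such pairs of an H2A and an H2B gene with starts 219 to 323 bases apart. The window of H2AC6 from the RefSeq promoter table (GRCh38.p14, chr6:26123922-26124221, plus strand, 250 bases before the start and 50 after it) is shown because it spans both starts. Capitals mark the TATA box, searched as TATAAA, on either strand. They also mark the CAAT box, for which the search used CCAAT. The octamer was searched as ATTTGCAT and is marked too.
H2AC6: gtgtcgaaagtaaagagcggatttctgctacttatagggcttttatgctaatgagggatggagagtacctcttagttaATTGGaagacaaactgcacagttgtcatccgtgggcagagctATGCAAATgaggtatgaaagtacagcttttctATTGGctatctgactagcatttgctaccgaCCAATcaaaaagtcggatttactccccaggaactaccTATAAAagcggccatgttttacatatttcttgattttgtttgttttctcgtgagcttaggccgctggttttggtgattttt
The octamer is known as the binding site of POU2F1 in H2B promoters. A window was found for 30 of the 35 members. ATTTGCAT was in 8 of 11 H2B and 4 of 6 H2A windows and in none of the 13 windows of H1, H3 and H4 genes, against 1.76% of all 34796 promoters. These 12 windows hold only 8 separate octamers, since those of H2AC6, H2AC8, H2AC11 and H2AC20 lie in the overlap with the windows of their H2B partners and were counted for both genes. CCAAT was in all 20 windows of H2A, H2B and H3 genes and in 1 of 7 of H4 genes, against 34.6% of all promoters. TATAAA was in 19 of the 30 windows, against 11.6% of all promoters. Matches of CCAAT and TATAAA in overlapping windows were also counted for both genes. The only TATAAA in the H2BC4 window is that of H2AC6, and the only match in the H2AC8 window is that of H2BC8. In the H4C16 window the match lies at the far end from the start. The 19 are thus not all genes with a TATA box of their own. In 0 of the 30 windows did matches of different motifs overlap. H4C9 is the H4 gene with CCAAT, and its window (chr6:27139032-27139331, plus strand) is shown as the contrast to that of H2AC6, with no octamer and no TATAAA.
H4C9: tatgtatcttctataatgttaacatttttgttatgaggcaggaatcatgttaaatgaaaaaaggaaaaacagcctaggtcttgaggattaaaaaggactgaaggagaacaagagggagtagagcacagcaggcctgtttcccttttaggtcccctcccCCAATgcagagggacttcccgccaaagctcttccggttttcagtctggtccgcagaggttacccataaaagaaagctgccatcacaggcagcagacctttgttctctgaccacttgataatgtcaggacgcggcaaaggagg

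Among H4 genes, which encode the same protein, H4C9 came nearest to the threshold. It was at 6.18, 6.61 and 5.87 CPM in control and 7.99, 7.34 and 7.91 CPM in 4-OHT ATII CM, and every 4-OHT library was above every control library. The log2 fold change was 0.32 (standard error 0.103, 95% interval 0.10 to 0.54), and the adjusted p of 0.0899 from edgeR missed the threshold. H4C8 had a log2 fold change of the same size, 0.32, from 2.86, 2.63 and 2.43 CPM in control to 3.20, 3.65 and 3.01 CPM in 4-OHT ATII CM. Its groups also stood apart, but the interval of -0.03 to 0.66 held 0 (edgeR, adjusted p = 0.335). H4C5, with 2, 1 and 3 counts in control and 4, 9 and 4 in 4-OHT ATII CM, gave a ratio of 2.40 with a 95% counting interval of 0.902 to 7.43. The other 4 H4 genes, H4C11, H4C12, H4C15 and H4C16, had 16 to 68 counts each and overlapping groups.

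Of the H2B genes, H2BC5 was at 6.04, 6.50 and 5.74 CPM in control and at 7.67, 6.86 and 7.495 CPM in 4-OHT ATII CM, so that the groups did not overlap. Its log2 fold change was 0.27 with SE 0.106 (edgeR, adjusted p = 0.180). H2BC12, the most abundant, was at 19.3, 19.8 and 19.99 CPM in control and 19.7, 22.7 and 21.99 CPM in 4-OHT ATII CM, with overlapping groups and a log2 fold change of 0.13 (95% interval -0.02 to 0.27). H2BC21 lay at 6.23, 5.99 and 5.30 CPM against 5.85, 5.77 and 5.55 CPM, and the interval of its log2 fold change of -0.03 ran from -0.27 to 0.21. The pseudogene H2BC20P was at 3.05, 2.46 and 2.12 CPM against 2.65, 2.97 and 3.58 CPM, a log2 fold change of 0.28, and H2BC11 at 1.59, 1.74 and 1.24 CPM against 1.42, 1.20 and 1.45 CPM, a log2 fold change of -0.16. These and the other 8 H2B genes and pseudogenes had overlapping groups and log2 fold changes of -0.28 to 0.86, the largest for H2BC18 with 32 counts.

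H2A genes went both ways. Beside H2AC6, H2AC8 had groups that stood apart upwards on 36 counts in all, with 3, 4 and 6 counts in control and 7, 8 and 8 in 4-OHT ATII CM. H2AC25, a gene of the smaller cluster on chromosome 1, was lower in every library of 4-OHT ATII CM, at 2.15, 2.89 and 2.47 CPM against 3.33, 3.19 and 3.09 CPM in control. Its log2 fold change of -0.35 (standard error 0.165) had an adjusted p of 0.289 from edgeR. H2AC11, H2AC13 and H2AC20 had overlapping groups and log2 fold changes of 0.08, -0.34 and -0.28.

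The H3 genes gave the fewest counts of any class in all, although the median per gene was lower for H4 genes (36) than for H3 genes (71). H3C6 had 30, 32 and 54 counts in control and 44, 71 and 40 in 4-OHT ATII CM, and H3C10 had 71 counts in all, both with overlapping groups. H3C8 was the member with the most negative log2 fold change, -1.65 with SE 0.702 (edgeR, adjusted p = 0.228), but this rests on 3, 5 and 6 counts in control and 2, 1 and 2 in 4-OHT ATII CM. The ratio of 4-OHT to control was 0.302 with a 95% counting interval of 0.0852 to 0.888.

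The linker histone genes had overlapping groups. H1-10 was at 59.0, 66.9 and 65.2 CPM in control and 66.1, 62.5 and 59.9 CPM with 4-OHT, a log2 fold change of -0.02 with an interval of -0.13 to 0.09. The clustered gene H1-2 was at 8.25, 8.51 and 9.97 CPM against 8.22, 7.18 and 9.36 CPM, and the interval around its log2 fold change of -0.11 was -0.35 to 0.13. H1-4, with 12 counts, gave a ratio of 2.54 with a 95% counting interval of 0.634 to 14.6. H1-9P and H1-10-AS1 had overlapping groups.

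**Figure D3:**
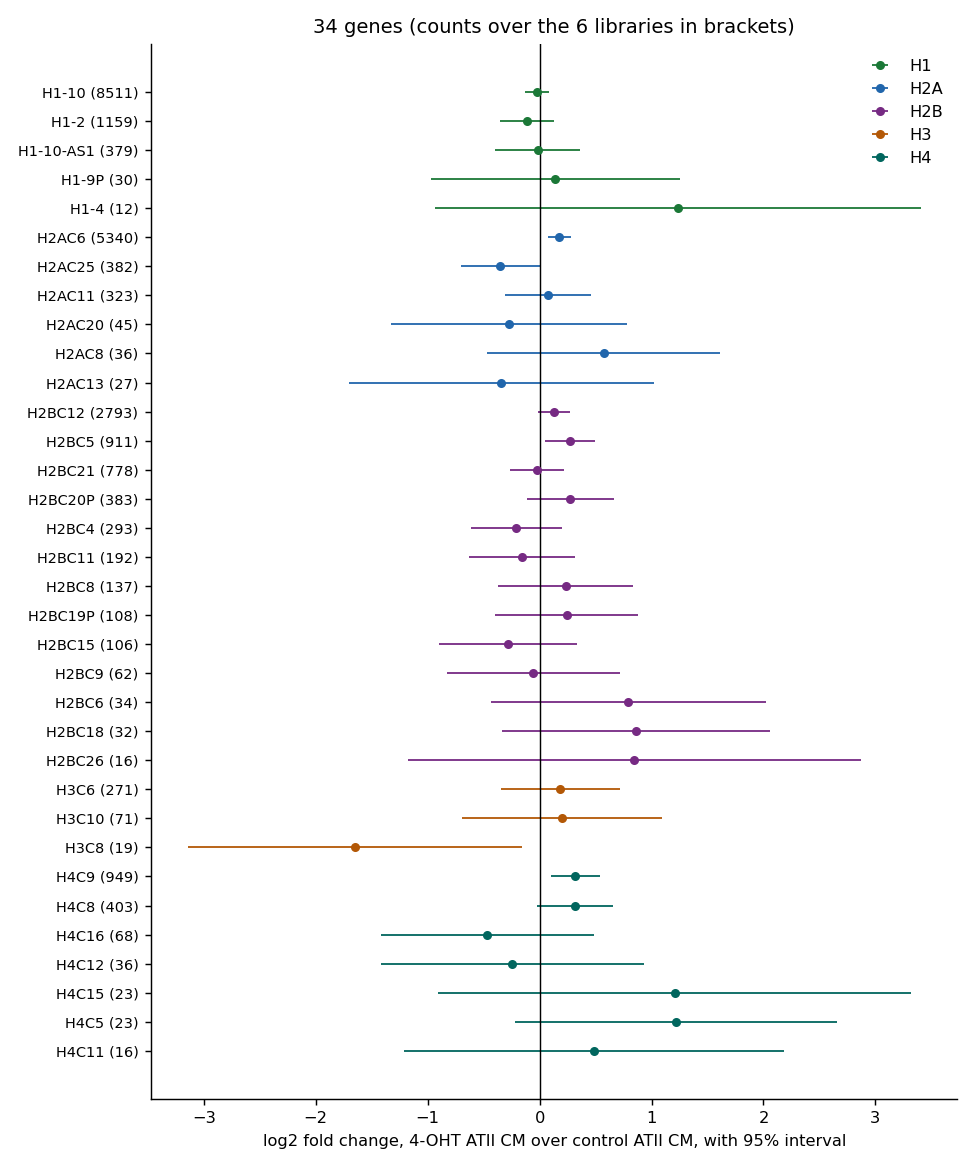
Log2 fold change of each of 34 genes, 4-OHT ATII CM over control ATII CM, with its 95% interval from edgeR, colored by class and with the counts over the 6 libraries in brackets. Only the intervals of H2AC6, H2BC5, H4C9 and H3C8 leave out 0, and the widest interval belongs to H1-4, the gene with the fewest counts.

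Over all 35 genes, 20 had a positive and 15 a negative log2 fold change, with a median of 0.14, beside -0.0020 for all genes tested. The median fell to 0.03 without control replicate 1, to 0.04 without 4-OHT replicate 2 and to 0.06 without 4-OHT replicate 3. The groups did not overlap in 6 genes upwards (H2AC6, H2AC8, H2BC5, H4C5, H4C8 and H4C9) and in 2 downwards (H2AC25 and H3C8). This is 22.9% of the members, and of all genes tested 22.1% had groups that did not overlap, 11.7% upwards and 10.4% downwards. Without adjustment 4 members had a p below 0.05, H2AC6, H2BC5 and H4C9 upwards and H3C8 downwards, beside 17.3% of all genes tested, and DESeq2 called none after adjustment. The positive median rested partly on sparse genes: it was 0.34 for the 16 members under 100 counts, whose intervals had half-widths of 0.77 to 2.17, and 0.08 for the 19 with at least 100 counts, with a median half-width of 0.35. Only 4 members had a half-width below the log2 fold change of H2AC6.

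Summed over the 29 replication-dependent coding members, the level was 102.4, 102.2 and 104.3 CPM in control ATII CM and 112.7, 111.2 and 111.9 CPM with 4-OHT ATII CM, and the log2 ratio of the means was 0.12. Every 4-OHT library was above every control library, and no test was made on this sum. Without H2AC6, H2BC12 and H1-2, the 3 of these genes with the most counts, the means were 37.5 ± 1.03 CPM in control and 40.4 ± 0.525 CPM with 4-OHT ATII CM (mean ± SD over 3 libraries each). Without H4C9, H2BC5 and H4C8 as well, the other 23 genes were at 22.51 ± 0.176 CPM and 22.03 ± 0.729 CPM, with overlapping groups. These 3 genes were left out because their groups stood apart upwards, which by itself lowers the difference that remains, so this value is a description only. The 27 core histone genes summed to 94.0 ± 0.353 CPM in control and 103.6 ± 1.14 CPM in 4-OHT ATII CM. By class, the sums of H4 genes stood apart, at 10.3, 10.0 and 9.75 CPM against 12.3, 12.9 and 11.8 CPM, and so did those of H2A and H2B genes, with log2 ratios of 0.30, 0.14 and 0.10. H2AC6 gave 5340 of the 6153 H2A counts, and the other 5 H2A genes summed to 6.31 ± 0.346 CPM in control and 5.75 ± 0.425 CPM with 4-OHT, with overlapping groups. Without H2BC5 the other 10 H2B genes summed to 32.1 ± 0.775 CPM and 33.6 ± 1.23 CPM, and without H4C9 and H4C8, which gave all but 166 of the 1518 H4 counts, the other 5 H4 genes to 1.15 ± 0.341 CPM and 1.27 ± 0.546 CPM, both with overlapping groups. The genes left out of these 3 sums were also chosen for groups that stood apart upwards, and the same limit holds. The sums of the 2 clustered H1 genes and of the 3 H3 genes overlapped between the groups.

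**Figure D4:**
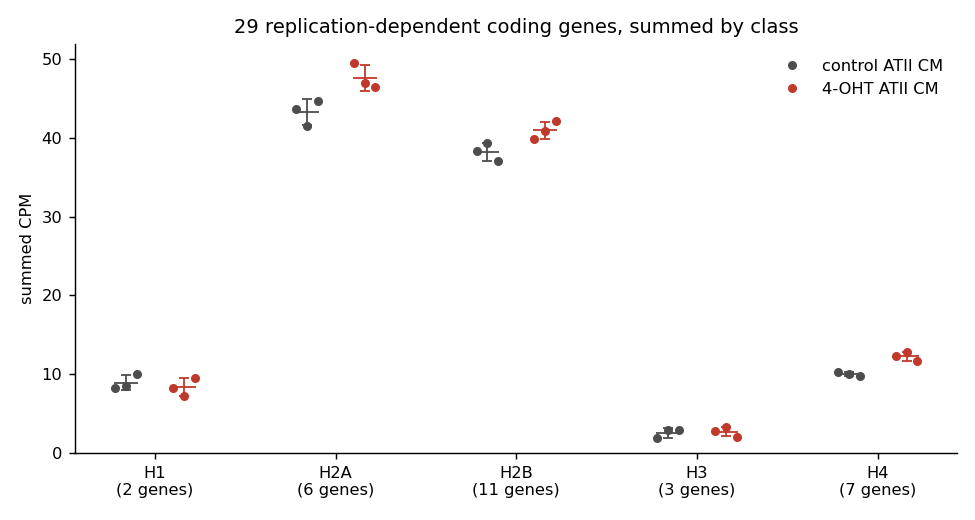
CPM summed over the 29 replication-dependent coding members by class, in each library of control ATII CM (grey) and 4-OHT ATII CM (red), with the mean and SD of each group. For H2A, H2B and H4 genes all 3 4-OHT libraries lie above all 3 control libraries, and for H1 and H3 genes the groups overlap.

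S phase is the part of the cell cycle in which these histone genes are transcribed. Of 42 S phase genes tested, 18 were lower in 4-OHT ATII CM and none was higher, with a median log2 fold change of -0.28 and 37 of 42 negative. SLBP, CCNE2, NASP, MCM2, CHAF1B and CASP8AP2 are also in one of the lists that follow. RRM2, a subunit of the enzyme that makes deoxynucleotides, fell from 29.99, 31.2 and 28.6 CPM to 21.01, 19.4 and 21.4 CPM (log2 fold change -0.54, edgeR, adjusted p = 7.66e-05). MCM5, part of the replicative helicase, fell with a log2 fold change of -0.39 (edgeR, adjusted p = 0.000913). DTL, a substrate receptor of a replication-coupled ubiquitin ligase, fell with -0.63, and CCNE2 with -0.84. The others called lower were CENPU, GINS2, MCM2, HELLS, CDC6, CLSPN, TYMS, FEN1, ATAD2, UHRF1, RFC2, MCM4, MCM6 and NASP, with log2 fold changes of -0.63 (CENPU) to -0.15 (NASP). RFC2 stayed called in 5 of 16 alternatives and CLSPN in 10. Without 4-OHT replicate 2, 7 of the 18 calls were made. The summed level of the list was 892.5 to 930.1 CPM in control and 744.8 to 804.2 CPM in 4-OHT ATII CM. None of the 29 replication-dependent coding histone genes was called lower, and the difference between them and the S phase genes was not tested. Over the S phase, factor, chaperone, variant, tailing and tailless lists together 27 genes were called, against 17 without control replicate 3 and 9 without 4-OHT replicate 2.

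The factors that act on histone genes and their mRNAs were followed in a list of 27 genes, of which 3 were called lower and none higher, with a median log2 fold change of -0.04. SLBP, which binds the stem-loop, was at 50.9, 51.6 and 50.4 CPM in control and 51.0, 46.5 and 49.7 CPM in 4-OHT ATII CM (log2 fold change -0.05, edgeR, adjusted p = 0.598). NPAT, the transcriptional coactivator of the clusters, was at 15.1, 14.0 and 15.6 CPM against 15.1, 14.6 and 14.0 CPM (log2 fold change -0.04, adjusted p = 0.860). The 3 that fell were CCNE2 and CDK2, a cyclin E and its kinase, which phosphorylates NPAT, and SRRT, a partner of the cap-binding complex. CCNE2 went from 2.86, 2.97 and 3.44 CPM to 1.87, 1.56 and 1.75 CPM, a log2 fold change of -0.84 (edgeR, adjusted p = 0.00836). CDK2 and SRRT had log2 fold changes of -0.24 and -0.16. CCNE1, the other cyclin E gene, was at 4.69, 4.70 and 5.34 CPM in control and 5.21, 4.81 and 5.44 CPM with 4-OHT (log2 fold change 0.07, edgeR, adjusted p = 0.850). Without control replicate 3 or without 4-OHT replicate 2, 0 of the 27 were called. None of 17 poly(A) tailing and tail-binding genes was called in either direction by edgeR, and 1 (PABPC4) had an unadjusted p below 0.05. Of 16 alternatives, 6 called 1 gene of the list lower, DESeq2 and limma-voom among them, and 2 called 1 higher. Their median log2 fold change was -0.02 in edgeR, and PAPOLA, the poly(A) polymerase, was at 0.03.

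Of 26 histone chaperones and import factors, 5 fell and none rose, with a median log2 fold change of -0.11. The count was 2 without control replicate 3 or 4-OHT replicate 2, 3 without 4-OHT replicate 1 and 8 without control replicate 2, where 1 was also called higher. HJURP, the chaperone of the centromeric H3 variant, fell from 16.2, 15.4 and 14.3 CPM to 11.6, 9.22 and 10.2 CPM, a log2 fold change of -0.57 (edgeR, adjusted p = 0.00126). ASF1B, which hands new H3 and H4 on to chromatin assembly, fell with -0.57, and CHAF1A, the large subunit of that assembly factor, with -0.29. MCM2, which is a helicase subunit that also binds H3 and H4, and NASP, which stores H3 and H4, fell with -0.46 and -0.15.

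Of 10 histone variants outside the clusters, 3 fell and none rose, against 1 called lower without 4-OHT replicate 3, 0 without 4-OHT replicate 2 and 2 without any other library. CENPA, the centromeric H3, went from 6.98, 6.22 and 6.62 CPM to 4.80, 4.01 and 4.604 CPM, a log2 fold change of -0.57 (edgeR, adjusted p = 0.00894). H2AX, the variant phosphorylated at DNA breaks, fell from 51.7, 61.5 and 59.97 CPM to 50.6, 48.0 and 50.3 CPM, a log2 fold change of -0.22 (adjusted p = 0.0322). H2AX gives both a polyadenylated mRNA and one ending in a stem-loop, and the search found the loop 50 bases after its stop codon:
H2AX, chr11:119094893-119094918, minus strand: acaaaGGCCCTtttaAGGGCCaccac
H2AZ1, the main gene of the variant H2A.Z, fell from 142.6, 139.5 and 136.0 CPM to 129.6, 123.1 and 124.6 CPM, a log2 fold change of -0.15 (adjusted p = 0.0275). H3-3A and H3-3B, which encode the replacement histone H3.3, had log2 fold changes of 0.08 and 0.02 and were not called.

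**Figure D5:**
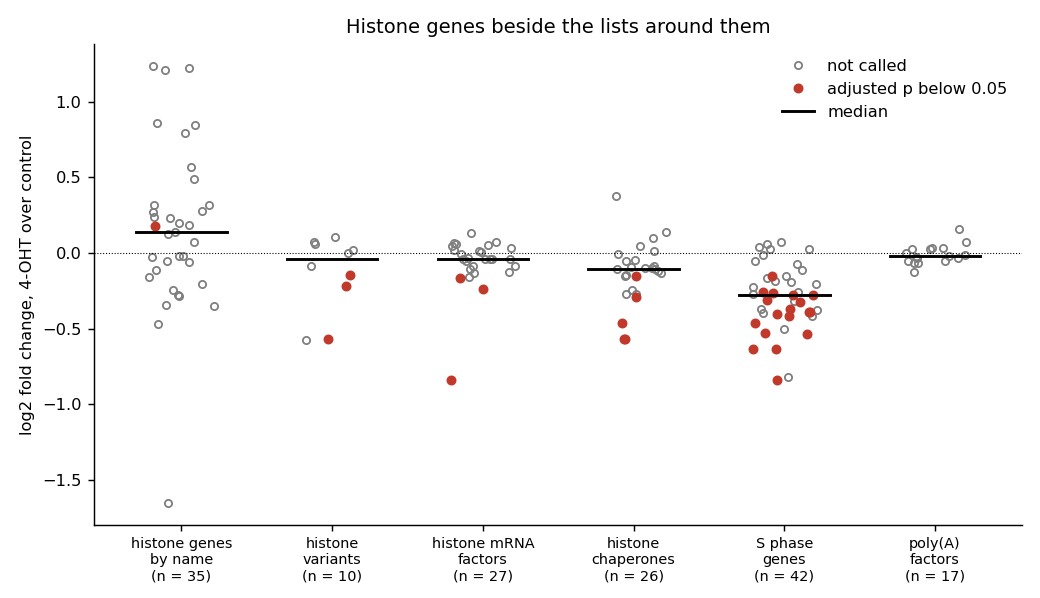
Log2 fold change, 4-OHT ATII CM over control ATII CM, of the 35 histone genes chosen by name beside 5 gene lists; red points passed an adjusted p below 0.05, open points did not, and bars are medians. The medians are 0.14 for the histone genes, -0.04 for histone variants, -0.04 for histone mRNA factors, -0.11 for chaperones, -0.28 for S phase genes and -0.02 for poly(A) factors.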

How the data were processed

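Polyadenylated RNA of 6 libraries was analysed. Per the labels and the study's methods, the authors used Trim Galore for trimming, HISAT2 2.1.0 for mapping to GRCh38 and featureCounts 1.6.5 for counting. The deposited values are unnormalized counts for each gene, beside the bases of its merged exons. The annotation release, strand setting and treatment of multi-mapped reads are not given in the sources used here. Counts of 45 identifiers listed on 2 lines were summed. Symbols came from GENCODE 44, which names 18962 of the 19072 genes tested. H2AC18, H2AC19, H3C2 and H3C3 could be matched only by position, to identifiers with 6, 2, 5 and 9 counts, all below the filter.

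Genes with at least 10 counts over the libraries entered a quasi-likelihood fit in edgeR 4.0.16 (TMM factors, group as the only term, R 4.3.3), with Benjamini-Hochberg adjustment over all of them and a threshold of 0.05. DESeq2 1.42.0 and limma-voom 3.58.1 were alternatives. Standard errors and 95% intervals were derived from the F statistic. Counting intervals are exact and cover counting error only. Coding sequences were compared with BLAST+ 2.17.0. Genes named are the members (1 is not reported here), with values by library for called, leading and extreme ones, and called genes of the lists. The members and lists were chosen with earlier results of these data known, so counts over them are not independent evidence.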

Additional observations from a re-analysis of the deposited data

How the results depend on the processing

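The call for H2AC6, and with it the number of members called higher, went from 1 to 0 with DESeq2, limma-voom, median-of-ratios size factors (adjusted p = 0.0508 in edgeR), the replicate block (adjusted p = 0.0540), libraries thinned to the smallest total (adjusted p = 0.252), and in each of the 6 fits without a library (0 to 0). It held with upper-quartile factors, with a lower or stricter count filter and with the length correction, also with the block. No member was called lower in any alternative. The median log2 fold change of the members was 0.026 with filterByExpr, which left 22 members, and 0.028 to 0.144 without a library, lowest without control replicate 1. Called genes of the other lists numbered 9 to 28 without a library, 17 without control replicate 3 and 9 without 4-OHT replicate 2, against 27. Thinning reversed H2AC11 (-0.031), H2AC20 (0.0040) and H2BC21 (0.028), none of them called. The replicate numbers did not pair the libraries, since deviations of same-numbered libraries correlated at -0.0145, -0.104 and -0.0931. The cause of these shifts was not tested. Leaving out single libraries also turned the sign of 12 uncalled members, whose log2 fold changes then ran from -0.076 to 0.013 for H1-10, -0.148 to 0.092 for H1-10-AS1, -0.014 to 0.185 for H2AC11, -0.76 to 0.110 for H2AC20, -0.763 to 0.028 for H2AC13, -0.102 to 0.023 for H2BC21, -0.0046 to 0.415 for H2BC19P, -0.135 to 0.081 for H2BC9, -0.092 to 0.412 for H3C6, -0.077 to 0.716 for H3C10, -0.675 to 0.073 for H4C12 and -0.286 to 0.852 for H4C11.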
